A study of Mus musculus with 8 samples.

Results

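The 8 genes described here, Greb1, Nrip1, Xbp1, Myb, Myc, Ccnd1, Ctsd and Ramp3, are known targets that estrogen induces in other tissues. They were chosen by name, with earlier results of these data known. Every probe set annotated to 1 of them alone was taken, 23 of the 45101 probe sets on the array. Expression was measured in the genital tubercle, the embryonic outgrowth from which the penis or clitoris develops, microdissected from FVB/N mouse embryos on embryonic day 14. The groups were 4 male and 4 female samples, not pooled per the labels, which name no treatment and no mutant allele. RNA went through 2 rounds of amplification and a biotin label before it was hybridized, 1 Affymetrix MOE430 array for each sample. Values are linear intensities scaled by the authors to a shared trimmed mean.

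Estrogen acts by binding the nuclear receptors encoded by Esr1 and Esr2. The bound receptor pairs with itself, settles on estrogen response elements in DNA and recruits cofactors that raise or lower transcription of nearby genes. Much of what is known of these targets comes from human breast cancer cells and from the uterus. In mice the genital tubercle of both sexes is known to carry estrogen receptor alpha, the product of Esr1, and prenatal estrogen exposure can alter how it forms.

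The sequences upstream of the genes were examined for the receptor's binding letters. RefSeq windows (build GRCm38.p6) from 250 bases before to 50 bases after an annotated transcript start were matched by symbol for 6 of the 8 genes, 8 windows in all, and Myc and Ccnd1 were not matched. The palindromic estrogen response element, GGTCA, any 3 bases and TGACC, was in none of the 8 windows and in 0.07% of all 32851 windows. Its half-site, GGTCA or on the other strand TGACC, was in 4 of the 8, those of Greb1 (both windows), Nrip1 (1 of 2) and Ctsd, and in 40.5% of all windows. No half-site was in the windows of Xbp1, Myb and Ramp3. These 4 windows are shown because they hold the half-sites, given in capitals:
Greb1, chr12:16800837-16801136, minus strand: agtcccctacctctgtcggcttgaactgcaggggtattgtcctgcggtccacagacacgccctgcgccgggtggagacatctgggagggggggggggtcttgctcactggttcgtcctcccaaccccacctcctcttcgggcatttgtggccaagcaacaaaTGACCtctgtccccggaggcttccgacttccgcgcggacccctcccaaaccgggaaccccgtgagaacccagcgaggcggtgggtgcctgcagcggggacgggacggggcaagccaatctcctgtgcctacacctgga
Greb1, chr12:16757190-16757489, minus strand: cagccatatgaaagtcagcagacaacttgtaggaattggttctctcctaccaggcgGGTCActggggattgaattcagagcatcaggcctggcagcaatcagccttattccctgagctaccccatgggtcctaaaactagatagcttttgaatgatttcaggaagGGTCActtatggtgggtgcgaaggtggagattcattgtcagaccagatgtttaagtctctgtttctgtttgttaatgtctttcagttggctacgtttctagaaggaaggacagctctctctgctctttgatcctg
Nrip1, chr16:76373778-76374077, minus strand: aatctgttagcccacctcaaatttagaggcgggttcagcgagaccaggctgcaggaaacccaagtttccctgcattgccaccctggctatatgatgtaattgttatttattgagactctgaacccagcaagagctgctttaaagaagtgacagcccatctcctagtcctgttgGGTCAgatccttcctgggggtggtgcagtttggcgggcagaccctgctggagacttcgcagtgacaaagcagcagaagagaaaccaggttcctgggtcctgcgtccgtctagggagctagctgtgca
Ctsd, chr7:142387778-142388077, minus strand: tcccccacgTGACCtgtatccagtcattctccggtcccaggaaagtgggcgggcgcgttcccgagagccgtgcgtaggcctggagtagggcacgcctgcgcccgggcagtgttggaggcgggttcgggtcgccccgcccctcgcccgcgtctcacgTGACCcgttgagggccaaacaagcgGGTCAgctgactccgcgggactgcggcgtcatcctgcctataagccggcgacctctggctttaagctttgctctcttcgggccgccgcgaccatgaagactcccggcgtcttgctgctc
In the first Greb1 window the half-site began at position -88 from the start, in the second at -194 and -85, in Nrip1 at -77 and in Ctsd at -241, -94 and -69. The Ctsd window also held the E-box CACGTG, the letters that Myc and related factors bind, at 2 places, each overlapping a TGACC half-site, while 7.15% of all windows held an E-box. A match describes the letters of these windows and says nothing of binding in these embryos.

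The labels were checked on sex-linked genes first. Eif2s3y, a Y-linked gene, had intensities between 4109 and 6136 on the male arrays and between 31.1 and 70.8 on the female arrays. Xist, made from the inactive X chromosome, read 344, 230, 16036 and 620 in males (replicates 1 to 4), against 32465 to 35816 in females, so male replicate 3 stood apart on Xist but not on Eif2s3y. The 18S control and the median intensity separated the arrays by sex. The 18S ribosomal RNA control read 28985, 23299, 33634 and 21050 on the male arrays and 8332, 18926, 11687 and 13913 on the female arrays (two-sided exact permutation p = 0.0286, the lowest that 4 against 4 arrays can give, and 0.0571 adjusted over 4 measures). The median log2 intensity gave the same p-values, with 7.93 ± 0.12 in males and 7.72 ± 0.07 in females (SD, n = 4 each). The 3'/5' ratio of the beta-actin control was 5.30 to 9.04 in males and 6.47 to 8.54 in females. That of Gapdh was 12.6 to 16.3 in males and 14.4 to 21.2 in females. Both overlapped between the sexes (exact permutation p = 0.686 and 0.257), and on every array the 3' end read brighter than the 5' end. The part of this in disagreements between probe sets was not tested. Of 13 genital tubercle markers on the array, 11 were bright enough to test, Hoxd13, Isl1 and Shh among them, and Fgf8 and Hoxa13 were not. Of these 11, 5 were called lower in males (Dlx5, Hoxd13, Isl1, Pitx1 and Shh) and none higher. Over all tested genes 42.2% were called in either direction and 28.2% lower. The share of markers called was near the first of these and above the second, and no test compared them. The median difference of the markers was -0.29 on the log2 scale, beside -0.12 over all tested genes. Their summed intensity was 116890 to 122220 in males and 134940 to 148980 in females. Their part in the sex differences of the 8 genes was not tested.

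Of the 8 genes, 4 were lower in males, namely Greb1, Myc, Xbp1 and Myb, none was higher, and 4 did not pass, each gene read on its brightest tested probe set. Each difference is the male minus the female mean of log2(intensity + 16), a scale that understates changes of dim genes, with the standard error (SE) of a limma fit over the 22519 probe sets above an intensity filter, and a call is a limma adjusted p under 0.05. Over 11489 tested genes, 42.2% were called, 28.2% lower and 14% higher in males. A share of 4 in 8 called was thus near the 42.2% of all genes called in either direction. All 4 were lower in males, a share above the 28.2% called lower. With 8 genes the count is small, and the shares were not compared by a test. Male and female ranges were apart for these 4 genes, with males lower, as they were for 39.6% of all tested genes in either direction and 27.3% with males lower. By probe set, 6 of the 17 tested were called lower and 1 higher in males, beside 21.9% lower and 18.7% higher among all 22519. The median difference of the 8 genes was -0.33, beside -0.12 over all tested genes. In bulk samples, fewer cells of a type and less RNA per cell cannot be told apart.

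**Figure D1:**
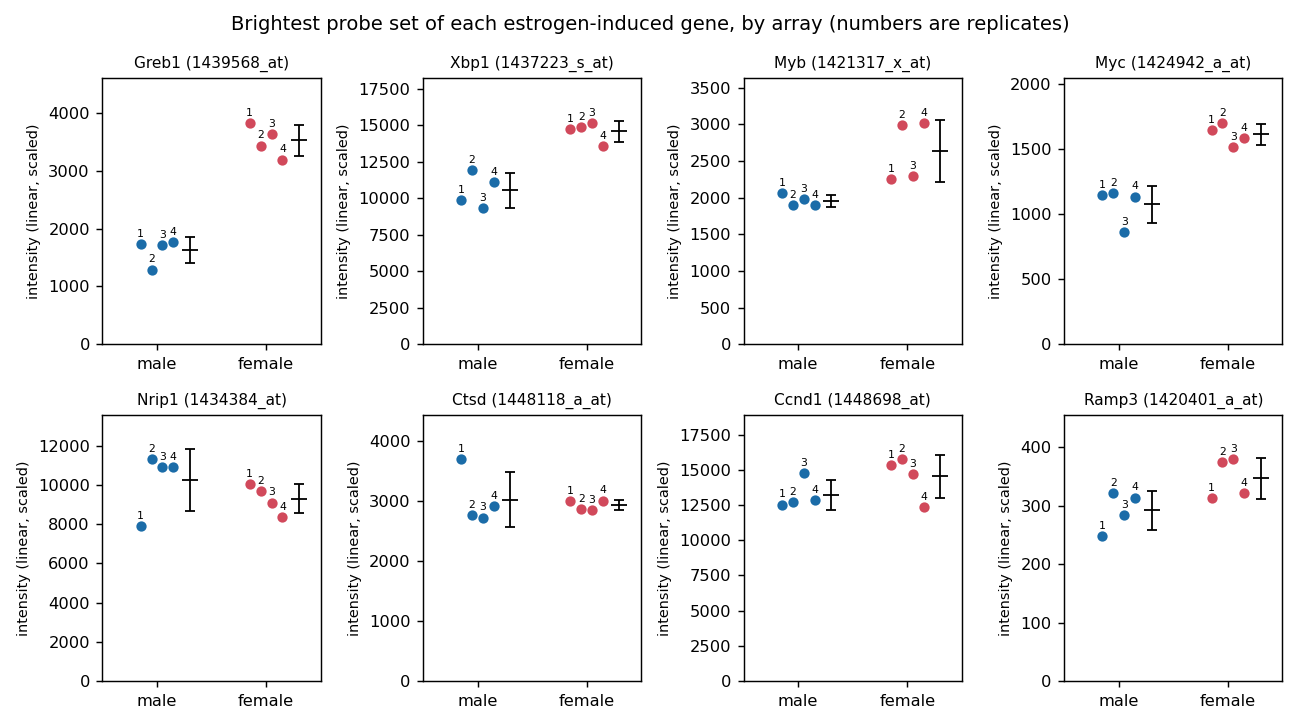
Linear intensity of each gene's brightest probe set on the 4 male arrays and the 4 female arrays (points, numbered by replicate), with the mean and SD as bars beside them. All male arrays lie below all female arrays for Greb1, Xbp1, Myb and Myc, and the sexes overlap for Nrip1, Ctsd, Ccnd1 and Ramp3.

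**Figure D2:**
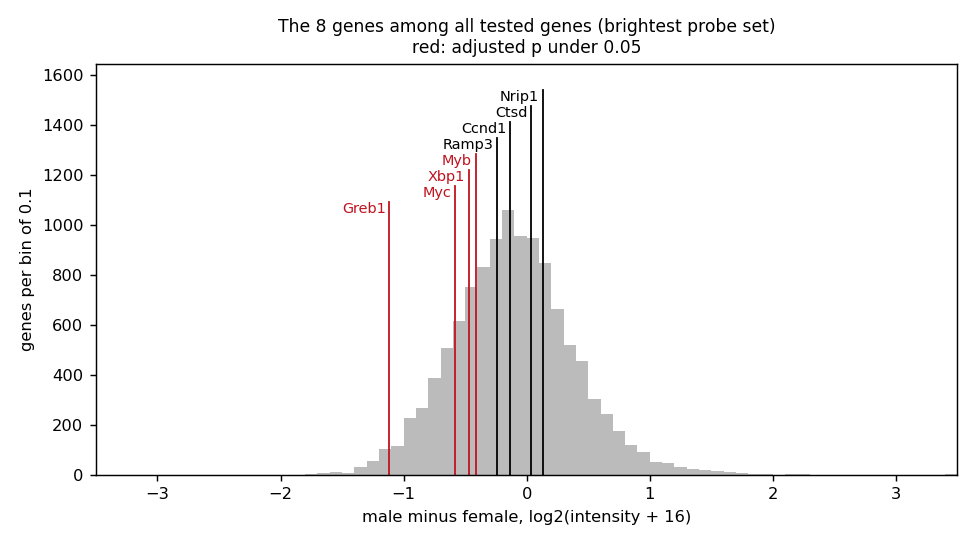
Number of tested genes per bin of 0.1 in male minus female difference (grey bars, log2 scale), with the 8 genes as lines, red where the limma adjusted p was under 0.05. Greb1, at -1.12, lies in the low tail and the other 7 lie between -0.58 and 0.13.

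Greb1 encodes a cofactor that binds the estrogen receptor in human breast cancer cells. Its brightest probe set, 1439568_at, read 1737, 1291, 1713 and 1773 in males (replicates 1 to 4), against 3835, 3440, 3639 and 3197 in females. The highest male array was far below the lowest female array, and the male mean was 46.2% of the female mean. Greb1 fell by 1.12 ± 0.13 on the log2 scale (SE, limma adjusted p = 0.000127), and 1.78% of all tested genes had a difference as low or lower. The other 3 Greb1 probe sets lay below the intensity filter. On 1419593_at the arrays ranged from 122 to 233 in males and from 138 to 200.02 in females, on 1445323_at from 63.8 to 267 in males and from 30.2 to 75.01 in females, and on 1445324_s_at from 7.32 to 210 in males and from 13.5 to 78.3 in females. The sexes overlapped on all 3, and fitted with no filter their differences were -0.10 ± 0.27, 0.79 ± 0.42 and 0.24 ± 0.67 (limma adjusted p = 0.836, 0.232 and 0.847). The lower level in males thus rested on 1 of 4 probe sets, the only one above the filter.

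Nrip1 encodes a corepressor that binds ligand-bound nuclear receptors, the estrogen receptor among them. Its probe sets did not give 1 answer. The brightest, 1434384_at, read 7913, 11307, 10930 and 10914 in males and 10055, 9675, 9107 and 8354 in females. Male replicate 1 was the lowest of all 8 arrays and the other male arrays were the highest, so the sexes overlapped and the difference was 0.13 ± 0.12 (limma adjusted p = 0.388; 95% interval -0.12 to 0.38). Without male replicate 1 it was 0.25 and passed (limma adjusted p = 0.0311).

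On the second brightest Nrip1 probe set, 1449089_at, males had 2739, 1466, 2258 and 1517 and females had 443, 1049, 555 and 606. Every male array was above every female array, with a male mean 3.01 times the female mean. Nrip1 was higher in males on this probe set (1.59 ± 0.27, limma adjusted p = 0.000812), the only 1 of the 17 tested probe sets of the 8 genes that was called higher. Over all tested probe sets 40.5% were called in either direction. The third tested Nrip1 probe set, 1418469_at, had 216 to 386 in males and 216 to 323 in females and did not pass (0.09 ± 0.23, limma adjusted p = 0.767).

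Of the 3 dim Nrip1 probe sets, 1447211_at read 71.7, 24.6, 33.3 and 30.2 in males, against 2.06, 3.59, 1.36 and 2.48 in females. All male arrays were above all female arrays, at intensities below the filter, and with no filter this probe set passed (1.54 ± 0.25, limma adjusted p = 0.00234). On 1432603_at and 1454295_at the sexes overlapped, with 55.3 to 224 and 17.9 to 365 in males, against 79.4 to 96.2 and 16.7 to 39.3 in females. Neither passed with no filter (limma adjusted p = 0.731 and 0.271).

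**Figure D3:**
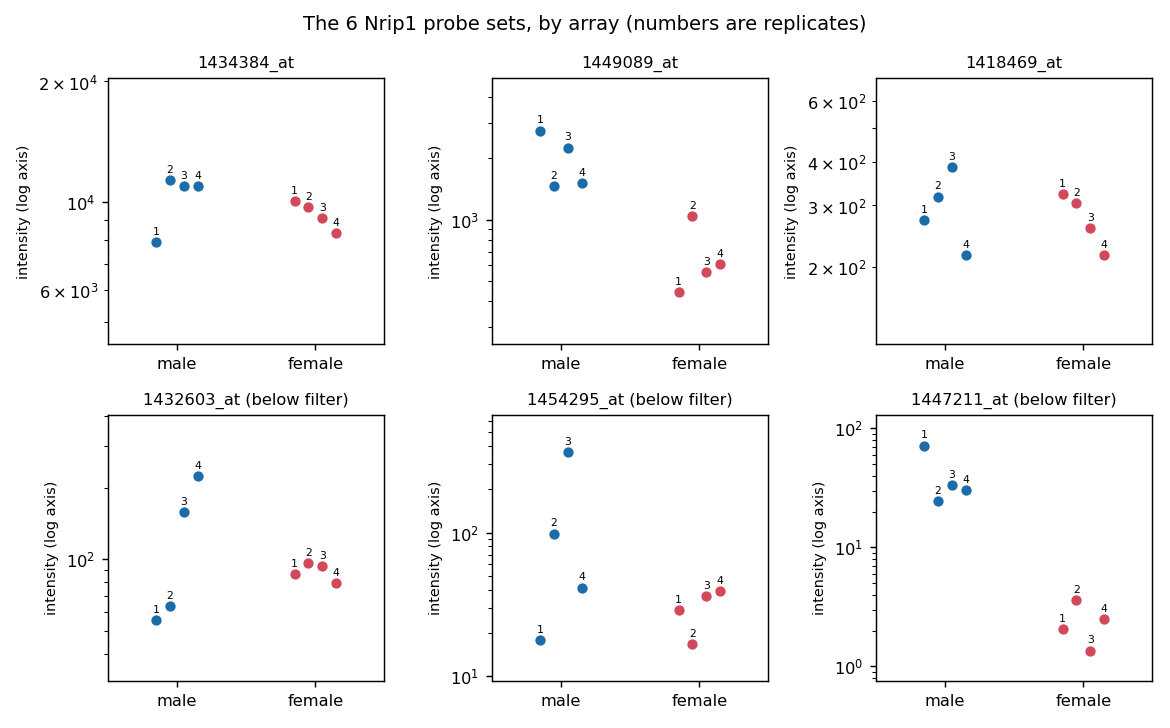
Intensity of the 6 Nrip1 probe sets on each male and female array (log axis, points numbered by replicate), the 3 in the lower row being below the intensity filter. The sexes separate on 1449089_at and 1447211_at, with males higher, and overlap on the other 4.

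Disagreement of this kind was common on the array. Of 4934 genes with several tested probe sets, 22.9% had a brightest probe set that was not called beside another that was, as Nrip1 had. The gap between the highest and lowest tested Nrip1 difference was 1.495, and 8.19% of these genes had a gap as large or larger, where the median gap was 0.54. The signal of 1449089_at was compared with the 18S control by array. Male replicates 1 and 3 had the highest values in males and also the highest 18S control, and female replicate 2 had the highest value and the highest 18S control among females. With the 18S level as a covariate the difference was 0.49 ± 0.30 and did not pass (limma adjusted p = 0.382). Without male replicates 1 and 3 it was 1.22 ± 0.29 and passed (limma adjusted p = 0.00919). The 18S level separated the sexes, so it cannot be told apart from sex, and its part in the Nrip1 signal was not tested. Skeletal muscle markers were higher in males as well. Of 8 tested of 12 on the array, 6 were called higher (Acta1, Chrna1, Myh3, Myod1, Myog and Ttn) and none lower. Over all tested genes 14% were called higher and 28.2% lower in males. The summed intensity of the 8 muscle markers was 12286 to 19379 in males and 3821 to 9412 in females. Ckm, Myf5, Myh8 and Tnnt3 lay below the filter, and the part of muscle in the Nrip1 signal was not tested. Of 6 tested neuron and axon markers, of 9 on the array, 4 were called higher in males (Dbh, Nefl, Nefm and Stmn2) and 1 lower (Gap43), with a summed intensity of 11421 to 15653 in males and 8649 to 10114 in females. Prph, Th and Tubb3 lay below the filter, and the part of neurons was not tested either. Of 3 tested gonad and genital duct markers, of 8 on the array, 1 was called higher (Sox9) and none lower. Foxl2 and Star were not called, and Amh, Cyp17a1, Dazl, Ddx4 and Pax8 lay below the filter. The part of gonad or duct tissue was not tested. Where on the Nrip1 transcript each probe set lies was not analysed here.

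Xbp1 encodes the transcription factor that drives the secretory arm of the unfolded protein response, made active when the enzyme Ern1 splices its RNA. Its brightest probe set, 1437223_s_at, read 9862, 11924, 9303 and 11117 in males and 14754, 14857, 15177 and 13569 in females, with no overlap (-0.47 ± 0.09, limma adjusted p = 0.00163). On 1420886_a_at males had 2763, 3303, 2303 and 2765 and females had 5489, 4911, 4996 and 3854. Here the male mean was 57.8% of the female mean, the largest drop among the Xbp1 probe sets (-0.79 ± 0.14, limma adjusted p = 0.00115). On 1420011_s_at males had 2310 to 2729 and females had 3147 to 3314 (-0.36 ± 0.11, limma adjusted p = 0.0177). That call was lost without female replicate 3 (limma adjusted p = 0.0514) and without male replicates 1 and 3 (0.0816). With the 18S level as a covariate, 1420886_a_at differed by -0.49 (limma adjusted p = 0.262) and 1420011_s_at by -0.21 (0.574), and neither passed.

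The dimmest Xbp1 probe set, 1420012_at, had 307 to 415 in males and 373 to 497 in females and did not pass (-0.20 ± 0.18, limma adjusted p = 0.409). All 4 Xbp1 probe sets thus had lower means in males, and 3 passed. The array does not tell spliced from unspliced Xbp1 RNA in these values. Among 12 tested genes of the unfolded protein response other than Xbp1, 3 were called higher and 4 lower in males, with a median difference of -0.06. Those higher were Ern1, Dnajb9 and Hyou1, the last 2 encoding chaperones, and those lower were Ddit3, a stress-induced transcription factor gene, Pdia4, Sdf2l1 and Sec61b. Genes of folding were thus in both groups. Over all tested genes 14% were called higher and 28.2% lower in males.

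Myc, a transcription factor that promotes growth and division, has 1 probe set. It read 1145, 1164, 862 and 1133 in males, against 1645, 1702, 1517 and 1582 in females. All male arrays were below all female arrays, and male replicate 3 was the lowest. Myc fell by 0.58 ± 0.14 (SE, limma adjusted p = 0.00636) and passed without any 1 array (highest limma adjusted p = 0.0207).

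Myb, a transcription factor known from blood progenitors and colon epithelium, was read by 3 tested probe sets. On the brightest, 1421317_x_at, males had 2063, 1894, 1983 and 1896 and females had 2257, 2987, 2298 and 3024. The sexes did not overlap, but the gap between the highest male and the lowest female array was small, and female replicates 2 and 4 stood above the other 2 females. The difference was -0.42 ± 0.13 (limma adjusted p = 0.0258), and the call was lost without male replicate 2 (0.0580), male replicate 4 (0.0547), female replicate 2 (0.0804) or female replicate 4 (0.0698). The suffix of this probe set marks probes that may bind other transcripts. On 1450194_a_at males had 569 to 629 and females had 671 to 1133, again with no overlap, and the difference missed the threshold (-0.45 ± 0.18, limma adjusted p = 0.0643). The dim 1422734_a_at lay the other way (0.18 ± 0.25, limma adjusted p = 0.591), with 160 to 334 in males and 175 to 264 in females. With the mean of the 3 probe sets Myb did not pass (-0.23 ± 0.15, limma adjusted p = 0.232). Of 10 tested partners and relatives of Myc and Myb, 2 were called higher and 4 lower in males, with a median of -0.15. Those higher were Mxd1 and Mybl1, those lower were Mxd4, Mybl2, Mycl and Zbtb17, and Max lay below the filter. Over all tested genes 14% were called higher and 28.2% lower.

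Ccnd1 encodes cyclin D1, which activates the kinases Cdk4 and Cdk6 at entry into the cell cycle. Its brightest probe set, 1448698_at, read 12535, 12741, 14789 and 12850 in males and 15355, 15750, 14697 and 12376 in females. Female replicate 4 was the lowest of all arrays, so the sexes overlapped (-0.13 ± 0.09, limma adjusted p = 0.262; 95% interval -0.33 to 0.06). On 1417420_at the means lay the other way, with 7141 to 9079 in males and 6054 to 8371 in females (0.17 ± 0.12, limma adjusted p = 0.258). On 1417419_at males had 275 to 775 and females had 335 to 565 (0.01 ± 0.30, limma adjusted p = 0.974). No Ccnd1 probe set was called. Among 12 other genes of the cyclin D and Rb pathway, 1 was called higher in males (Rbl2) and 1 lower (Cdk6), with a median of 0.00. The shares over all tested genes were 14% higher and 28.2% lower.

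Ctsd encodes cathepsin D, an aspartyl protease of the lysosome. Its probe set, 1448118_a_at, read 3697, 2767, 2725 and 2914 in males and 3000, 2868, 2851 and 3009 in females. Male replicate 1 was the highest and the other 3 males lay at or near the female values. The difference was 0.03 ± 0.12 (limma adjusted p = 0.841; 95% interval -0.23 to 0.30). Of 8 other tested lysosomal genes, 3 were called higher in males (Ctsl, Hexa and Lamp1) and 2 lower (Ctsa and Ctsb). The shares over all tested genes were 14% higher and 28.2% lower.

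Ramp3 encodes an accessory membrane protein that, bound to the calcitonin receptor-like receptor, makes it a receptor for adrenomedullin. Its probe set read 248.6, 322, 284 and 314 in males, against 313, 375, 379 and 321 in females. The sexes overlapped at male replicates 2 and 4 and female replicates 1 and 4, and the difference did not pass (-0.24 ± 0.18, limma adjusted p = 0.324; 95% interval -0.64 to 0.16). Calcrl, the receptor it joins, had 5232, 6447, 5315 and 6425 in males and 4743, 3603, 4850 and 5006 in females. On this brightest probe set, 1425814_a_at, Calcrl was higher in males (0.37 ± 0.13, limma adjusted p = 0.0359). The call was lost without any 1 of 5 arrays (limma adjusted p up to 0.105, for female replicate 2). It was also lost with no filter (0.0631), with no mean-variance trend (0.0653) and with the replicate number as a block (0.0588). The 18S covariate (0.0687) and the mean of its tested probe sets (0.117) lost it as well. On Calcrl 1418489_a_at the sexes overlapped and the difference did not pass (0.48 ± 0.38, limma adjusted p = 0.331). Calcrl 1459536_at lay below the filter, with means of 48.1 in males and 56.8 in females. Of the 4 tested genes of this pathway other than Ramp3, Calcrl was the 1 called higher in males, and 2 were called lower, Ramp2, which encodes another partner of the receptor (-0.51, limma adjusted p = 0.0301), and Crcp (-0.65, limma adjusted p = 0.0012). Endothelium is where this receptor is best known. Of 7 endothelial markers tested, of 8 on the array, 3 were called higher in males (Kdr, Pecam1 and Tek) and 1 lower (Cdh5). The shares over all tested genes were 14% higher and 28.2% lower. The summed intensity of the endothelial markers was 11449 to 13794 in males and 9804 to 11308 in females. Tie1 lay below the filter, and the part of endothelium in the Calcrl signal was not tested.

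**Figure D4:**
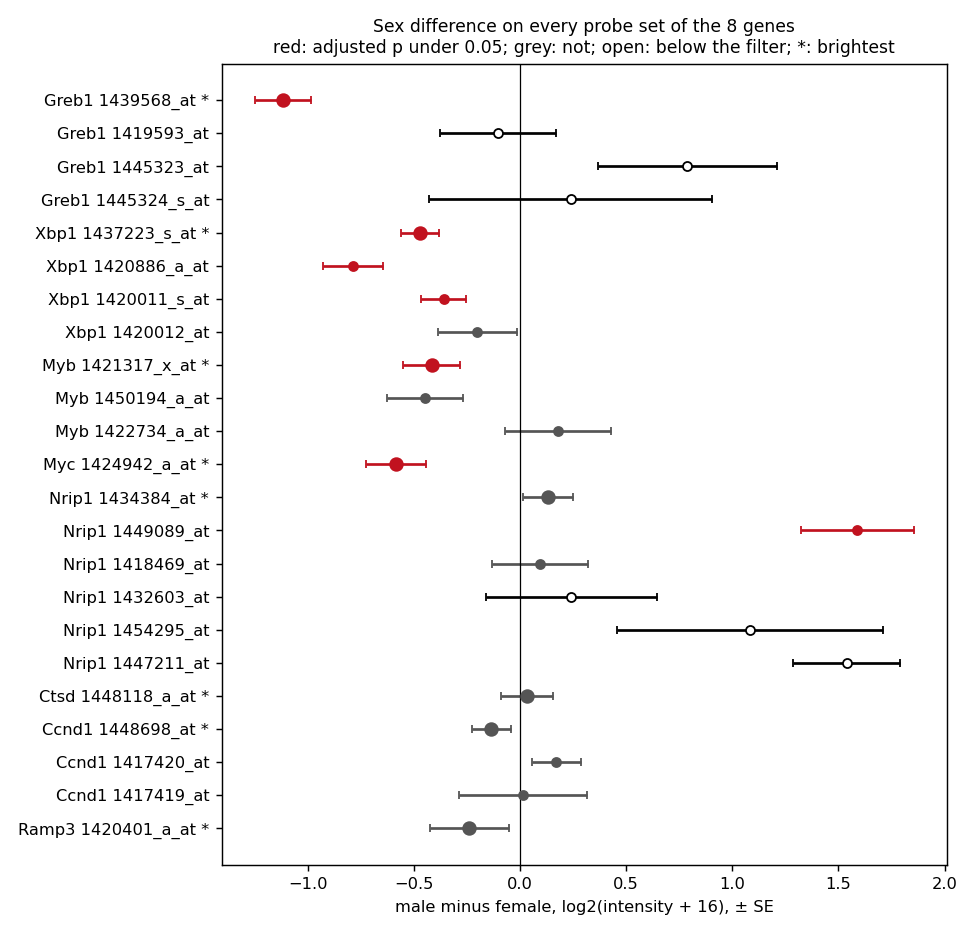
Male minus female difference (log2 scale, ± SE) on all 23 probe sets of the 8 genes, with a star beside the brightest one of a gene, red where the limma adjusted p was under 0.05, and open symbols for probe sets below the intensity filter, fitted with no filter. The 4 Xbp1 probe sets lie below 0, the Nrip1 probe sets lie between 0.09 and 1.59, and Greb1, Myb and Ccnd1 have points on both sides of 0.

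The receptors themselves were read on few bright probe sets. Esr1 on its brightest, 1460591_at, had 3603, 3418, 2184 and 2539 in males and 2841, 2088, 2165 and 2258 in females. The sexes overlapped, and the difference did not pass (0.31 ± 0.17, limma adjusted p = 0.17). On the dim Esr1 probe set 1435663_at males had 343, 141, 239 and 118 and females had 56.6, 29.4, 56.3 and 90.2. It lay below the filter, and with no filter it was higher in males (1.56 ± 0.39, limma adjusted p = 0.0181). The remaining Esr1 probe set, 1421244_at, also lay below the filter, with 30.05 to 131 in males and 20.9 to 94.15 in females. There the sexes overlapped, and with no filter it did not pass (0.40 ± 0.47, limma adjusted p = 0.616). The probe set of Esr2, which encodes estrogen receptor beta, was below the filter on all arrays, with 8.97 to 13.6 in males and 11.7 to 18.1 in females.

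Of 11 tested genes of estrogen receptors and receptor cofactors, Esr1 included, 3 were called higher in males (Med1, Ncoa2 and Tfap2c). Another 2 were called lower (Ncoa3 and Pelp1), and the median of the 11 was 0.22. No gene of estrogen synthesis was among those tested. Hsd17b1 and Hsd17b2, which are of that kind, lay below the filter, as did Esr2 and Gper1. Of 11 other tested genes known to be induced by estrogen, 1 was called higher (Mybl1) and 3 lower (Cxcl12, Igfbp4 and Slc7a5), with a median of -0.13. The shares called, 5 and 4 of 11, were close to that of all tested genes. Ltf, Pdzk1, Lif, Rara and Ccn5 were on the array and lay below the filter.

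Surface and urethral epithelium markers were read beside the genes lower in males. Of 10 tested of 10 on the array, 5 were called lower (Krt5, Krt8, Krt14, Krt18 and Upk1b) and 1 higher (Trp63). Epcam, Cdh1, Foxa1 and Cldn4 were not called. Over all tested genes 42.2% were called, 28.2% lower in males. The summed intensity of the markers overlapped between the sexes, with 51541 to 57609 in males and 51919 to 59874 in females. None was below the filter. For blood cells, in which Myb and Ctsd are known, 1 of 5 tested leukocyte markers, of 8 on the array, was called higher (Csf1r) and 1 lower (Cd68). Their summed intensity was 4210 to 4583 in males and 3174 to 3809 in females, and Aif1, Cd3e and Spi1 lay below the filter. Of 4 tested erythroid markers, of 7 on the array, 1 was called higher (Hbb-y) and 1 lower (Hba-x), with sums of 44064 to 53868 in males and 39184 to 42336 in females, and Gata1, Hba-a1 and Klf1 below the filter. The part of these cell types in the results was not tested.

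With the 18S control as a covariate the 4 calls were lost, and the SE of Greb1 rose from 0.13 to 0.25. This fit cannot tell the 18S level from sex, since the arrays separated by sex on that control. With its log2 level as a covariate, Greb1 differed by -1.05 ± 0.25 (limma adjusted p = 0.0529), Xbp1 by -0.32 ± 0.16 (0.279), Myb by -0.76 ± 0.22 (0.0845) and Myc by -0.47 ± 0.26 (0.327), so none passed, and 414 probe sets passed on the whole array. Under the other settings Greb1 lay between -1.21 and -1.01, with a limma adjusted p of at most 0.000916. When male replicate 3, whose Xist read high, was left out, Greb1 differed by -1.14, Xbp1 by -0.41, Myc by -0.48 and Nrip1 on 1449089_at by 1.51, and each passed.

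**Figure D5:**
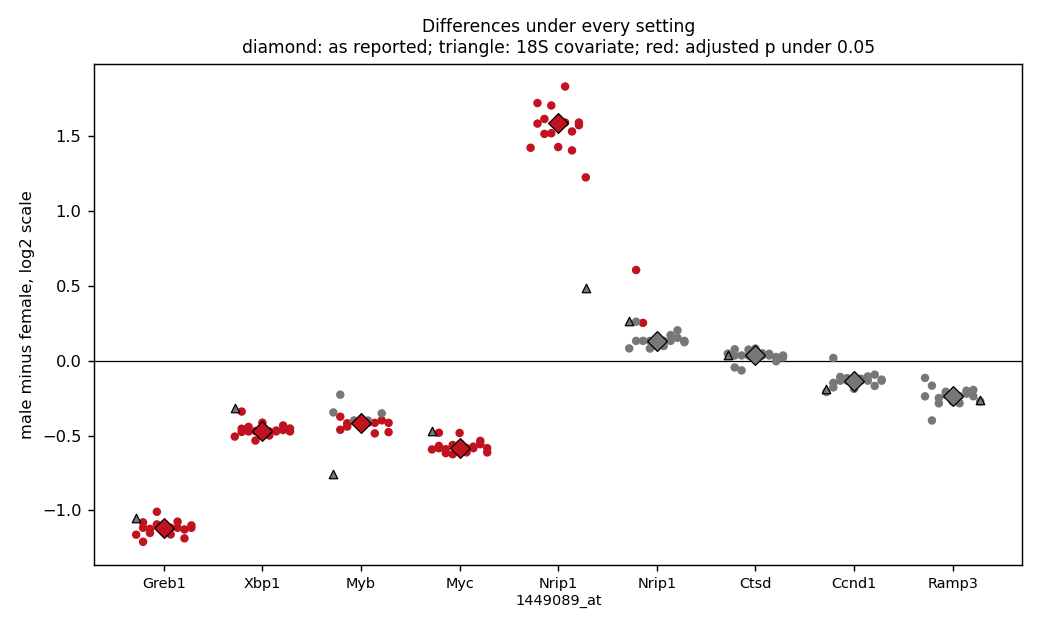
Male minus female difference (log2 scale) of each gene's brightest probe set and of Nrip1 1449089_at under every setting, with the reported value as a diamond, the fit with the 18S covariate as a triangle, and red where the limma adjusted p was under 0.05. In the setting that averages a gene's tested probe sets, that mean takes the place of the brightest probe set. Greb1 stays near -1.12 throughout, and Nrip1 1449089_at drops to 0.49 with the covariate. The mean of the tested Nrip1 probe sets is at 0.60.

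Genes whose values across the 8 arrays were most like those of each gene were found by the Pearson correlation of log2 values, each on its brightest tested probe set. The arrays fall into the sexes, so r holds the sex difference as well. For Greb1 these were Col18a1 and Fau (r = 0.99 each), for Xbp1 Tmed3 and Oxct1 (0.99 each), for Myc Slc1a5 and Hsd17b11 (0.99 each), and for Myb Gramd4 and Ppt2 (0.97 each). For Nrip1 they were Zc3h14 and Chmp5 (0.97 each), for Ctsd Tamm41 (0.97) and Ndufa10 (0.92), for Ccnd1 Ran and Tsc22d1 (0.96 each), and for Ramp3 1110038B12Rik (0.97) and Sec62 (0.96).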

How the data were processed

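The deposited table holds the authors' intensity of each probe set on a linear scale, made per the submitters' processing notes in GCOS, Affymetrix software whose version and settings were not given in the sources used here. Without the top and bottom 2%, the mean was 1500.0 on every array, so values were not normalized again. Of 45101 probe sets, 64 were controls, 34945 named 1 gene in the platform annotation, 932 several and 9160 none. Intensities were transformed as log2(value + 16), and the 22519 probe sets with a mean at or above the median (7.77) were tested with limma (version 3.58.1, R version 4.3.3), with sex as the only term, a mean-variance trend and Benjamini-Hochberg adjustment over all of them. A gene was counted by its brightest tested probe set. The fit was tested on simulated data. No pair of arrays held identical values. Nothing in the labels says whether samples share a litter or an amplification, so p-values speak only of the spread among these 8 samples, part of which may be technical, and the number of arrays limits precision. Named genes were the 8 genes, Esr1, Esr2, Calcrl, Xist, Eif2s3y and the 2 most correlated genes for each of the 8. Some genes of the lists were named as well, most of them called or below the filter. The 8 genes and all lists were chosen with earlier results of these data known. The alternatives tried were pseudocounts of 1 and 64, quantile normalization, an upper-quartile filter, no filter, no trend, a block for the replicate number, array weights, the 18S control as a covariate, the mean of a gene's probe sets and leaving out each array. The comparison without male replicates 1 and 3 was added after seeing the data.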

Additional observations from a re-analysis of the deposited data

Results flagged for a closer look

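Of 56 groups of 4 arrays examined, 8 held 1 array far from the other 3 by Dixon's test, which by chance marks about 1 group in 20. On the brightest Greb1 probe set, male replicate 2 read 1291 beside 1713 to 1773 on the other males. On the dim Greb1 probe sets, 1445323_at read 30.2 in female replicate 2 beside 72.3 to 75.01, and 1445324_s_at read 210 in male replicate 1 beside 7.32 to 20.5 and 78.3 in female replicate 4 beside 13.5 to 18.3. On the brightest Nrip1 probe set, male replicate 1 read 7913 beside 10914 to 11307. For Myc, male replicate 3 read 862 beside 1133 to 1164, and on the brightest Ccnd1 probe set it read 14789 beside 12535 to 12850. Xist in male replicate 3 read 16036 beside 230 to 620. The causes were not tested.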

How the results depend on the processing

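The 8 genes had 151 values under the alternatives, each on the brightest probe set or, in 1 setting, on the mean of the tested probe sets. Of these, 136 kept their direction and their side of the threshold, 9 no longer passed, 2 newly passed and 4 changed sign. The probe sets called numbered 9128, and 5890 with the upper-quartile filter, which tests fewer of them, 414 with the 18S covariate (60.6% of them higher in males, against 46.1%) and 7321 to 9454 without each array in turn. With the 18S covariate 0 of the 8 genes were called, 0 of them lower in males. The genes called lower were 3 to 4 without each array in turn, and those called higher 0 to 1, the 1 being Nrip1 without male replicate 1, and 1 with the mean of a gene's probe sets (Nrip1, 0.60, limma adjusted p = 0.00356). Sign changes were confined to probe sets that did not pass. Nrip1 1418469_at was -0.076 with quantile normalization, -0.061 with the 18S covariate, -0.052 without male replicates 1 and 3, and -0.035 to 0.23 without each array in turn. Ctsd was -0.0041 with array weights, -0.046 without male replicates 1 and 3, and -0.065 to 0.081 without each array in turn. Myb 1422734_a_at was -0.017 with quantile normalization, -0.45 with the 18S covariate and -0.077 without male replicates 1 and 3. Ccnd1 was 0.018 with the mean of its probe sets, and 1417420_at was -0.15 with the 18S covariate. Ccnd1 1417419_at was -0.089 with quantile normalization, -0.17 with array weights, -0.69 with the 18S covariate, -0.54 without male replicates 1 and 3, and -0.24 to 0.24 without each array in turn. The cause of these changes was not tested. A probe set that a setting left out has no value there. The dim probe sets limit what can be read, since their signal is small and their SE large. Arrays of the same replicate number in the 2 sexes had correlations of their deviations from the group means between -0.13 and 0.04, so the numbers were not taken to pair them; with the replicate number as a block 8460 probe sets and 4 of the 8 genes were called.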
